A study of Mus musculus with 18 samples.

Results

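Heart muscle of dko mice was set against leg muscle of dko mice, both at 8 weeks of age, on mouse gene expression arrays of total RNA. The comparison takes the 3 arrays titled as dKO heart and the 3 titled as dKO leg, 6 of the 18 arrays of the series, and treats the replicate number in the titles as a block. The labels leave dko unexplained; in common use the name means a mouse with neither dystrophin nor utrophin, a closely related protein. The remaining groups of the series are dko extraocular muscle and the heart, leg and extraocular muscle of mdx mice, with 3 arrays each at 8 weeks. The titles mark mdx, a strain without dystrophin, as control. A lack of dystrophin is therefore common to all 18 arrays. The labels do not name the chamber of the heart, the leg muscles taken, the strain or whether the replicates are separate animals, so p-values measure only how far these arrays vary, and that variation may be technical. How cardiac and limb muscle differ when both proteins are missing is the question this comparison addresses.

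Heart and limb muscle are both striated, and their sarcomeres are built from the same kinds of protein encoded by different genes. Cardiac cells are joined end to end by intercalated discs, release calcium through a receptor opened by entering calcium, burn mainly fatty acids and hardly regenerate. Limb fibres are fused cells driven by a nerve through acetylcholine receptors, couple voltage to calcium release mechanically, and are rebuilt from satellite cells after injury. Dystrophin ties the cytoskeleton of both to a complex in the membrane, and utrophin can take part of its place. Mice without both have a more severe disease than mdx mice in limb muscle and in heart.

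Values are intensities on a linear scale, as deposited, and are called units here. The median of the 6 arrays lay between 525.6 and 661.6 units. The arrays numbered 3, of heart and of leg, stood apart from the other 4. Their medians were 529.4 and 525.6 units, against 629.1 to 661.6 units in the others. In every other group of the series the array numbered 3 also had the lowest median. Log2 differences are heart minus leg, taken after an offset of 166.1 units was added, so they understate the change of dim genes. They were estimated with limma over all 18 arrays, with group means and a common term for the replicate number, and are given with their SE. A probe set was called when limma's p-value, after Benjamini-Hochberg adjustment over the 8895 tested, was under 0.05.

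Of the 66 control probe sets, which were tested apart, 1 was called between the tissues. It was the 3′ control for Gapdh, a glycolytic enzyme, with 12705.6, 8015 and 39703 units in dko heart, against 1948, 917.3 and 4946 units in dko leg (adjusted p = 2.41e-05). The 5′ control for the same gene gave 19784, 19999 and 51586 units in dko heart, against 13526, 3479.8 and 30054 units in dko leg, and was not called. In leg the array numbered 2 was the lowest at both ends of Gapdh. The 3′ control for beta-actin, a cytoskeletal protein, read 20872, 10338.6 and 43922 units in dko heart, against 18406, 941.9 and 30467 units in dko leg (adjusted p = 0.213). Its 5′ control read 20833, 19082.5 and 45597 units in dko heart, against 29969, 21332 and 28894 units in dko leg. The leg array numbered 2 was thus low at the 3′ end of beta-actin and not at its 5′ end. Controls of this kind are read as a sign of RNA or array quality, and its part in the results was not tested.

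The probe sets for the genes of the missing proteins read in the low to middle range in both dko tissues. The highest dko reading, 646 units for Utrn in the leg array numbered 1, was close to the median of that array, 646.4 units. Utrn, which encodes utrophin, read 348, 413 and 297 units in dko heart, against 646, 431 and 233 units in dko leg, with a log2 difference of -0.16 (adjusted p = 0.751). Dmd, which encodes dystrophin, read 285, 154 and 315 units in dko heart, against 409, 262 and 71 units in dko leg, with a log2 difference of 0.08 (adjusted p = 0.841). The ranges overlapped for both genes. A second probe set for Utrn read 219.9, 292 and 262 units in dko heart, against 239.6, 259.8 and 298 units in dko leg, and had a log2 difference of -0.03. In mdx mice the same probe set averaged 644 ± 48.5 units in heart and 494 ± 56.6 units in leg (SD, n = 3 each), above the dko values in both tissues; this difference was not tested here. Whether the probe sets lie in the disrupted parts of the genes is not stated in the labels.

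In all, 2093 of 8895 probe sets were called, or 23.5%. Of them 1068 (12.0% of those tested) were higher in dko heart and 1025 (11.5%) were lower. With a log2 difference of at least 1 required as well, 399 were higher (4.49%) and 460 were lower (5.17%). The 3 heart arrays lay wholly above the 3 leg arrays at 1079 probe sets (12.1%) and wholly below them at 1071 (12.0%). The median log2 difference over all probe sets tested was 0.02, and the 5th and 95th percentiles were -1.04 and 0.96. Without the replicate block 951 probe sets were called, and all 951 were among the 2093. The 5 genes with the highest log2 difference were Myl7, Myh6, Ryr2, Tnni3 and Dsp, and the 5 with the lowest were Pvalb, Myh1, Myh4, Tnnt3 and Ryr1.

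**Figure D1:**
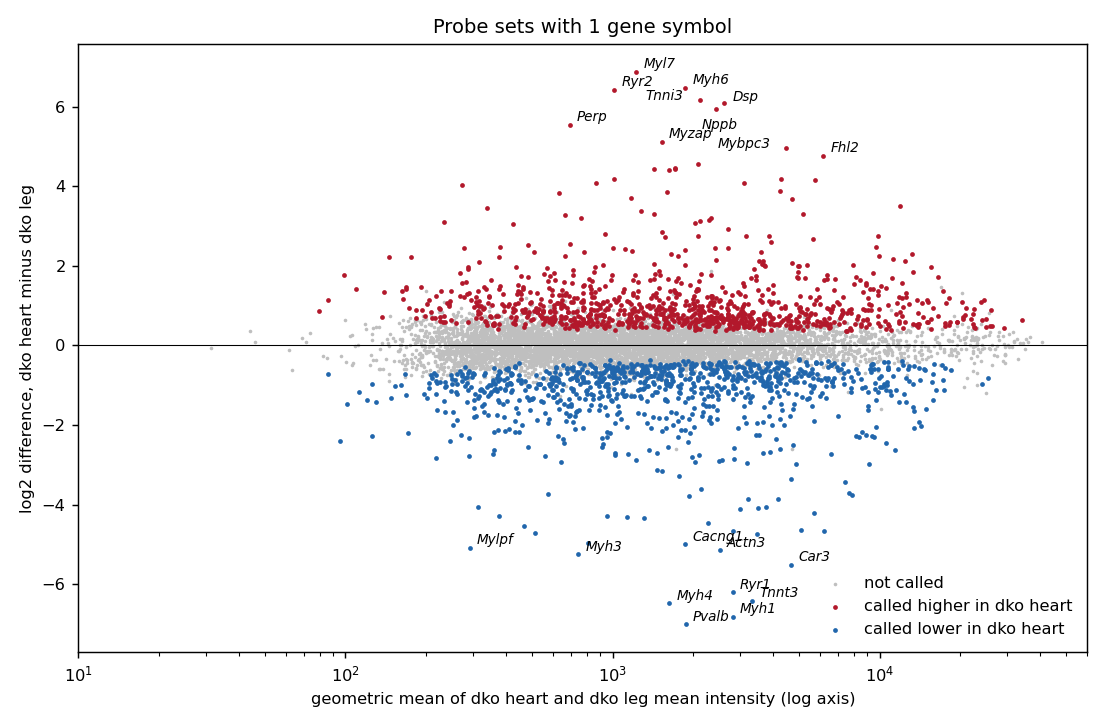
Each point is a tested probe set with 1 gene symbol. The horizontal axis is the geometric mean of the dko heart and dko leg mean intensities (log axis, units), and the vertical axis is the log2 difference, dko heart minus dko leg. Red points were called higher in dko heart, blue points were called lower and grey points were not called; the 10 genes with the highest and the 10 with the lowest difference are named, from Myl7 at 6.88 to Pvalb at -7.01.

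Contractile proteins known from the heart were higher in dko heart. All 7 genes listed as cardiac contractile proteins passed the filter; 6 were called higher in dko heart, 0 lower, and the median log2 difference was 4.97, against 0.02 over 1 probe set for each of 6553 genes. Myl7, the atrial form of the regulatory light chain, read 23789.7, 22159 and 33121 units in dko heart, against 33.6, 54.5 and 82.3 units in dko leg (log2 difference 6.88 ± 0.20, adjusted p = 5.82e-11). Myh6, the fast cardiac myosin heavy chain, read 24958, 9180.2 and 62137 units in dko heart, against 68.7, 126 and 133 units in dko leg (log2 difference 6.48 ± 0.59, adjusted p = 1.84e-06). Tnni3, cardiac troponin I, read 14272, 15685 and 51669 units in dko heart, against 149.7, 294 and 54.2 units in dko leg (log2 difference 6.17 ± 0.63, adjusted p = 5.56e-06). In each case the lowest heart array was far above the highest leg array, while the heart arrays differed among themselves, with the array numbered 3 the highest.

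Mybpc3, the cardiac myosin-binding protein C, read 16749, 18604 and 48182 units in dko heart, against 1242, 615 and 291 units in dko leg (log2 difference 4.97 ± 0.60, adjusted p = 2.86e-05). Tnnt2, cardiac troponin T, which is also made in embryonic skeletal muscle, read 27234, 33372 and 63032 units in dko heart, against 2426, 5082 and 2806 units in dko leg (log2 difference 3.50 ± 0.34, adjusted p = 3.6e-06). The leg arrays thus held a readable Tnnt2 signal, as they did not for Myl7. Actc1, cardiac alpha-actin, read 33355, 38706 and 58099 units in dko heart, against 24445, 26705 and 29292 units in dko leg (log2 difference 0.65 ± 0.17, adjusted p = 0.0121), and the tissues did not overlap. The second probe set for Actc1 went the other way, at a log2 difference of -1.19, and was not called, and the call of the first was lost in 6 of 20 alternatives, the fit without the block among them. Myl4, the light chain of atrium and embryonic muscle, read 18617, 14724 and 24521 units in dko heart, against 15264, 16877 and 19725 units in dko leg; these ranges overlapped, and it was not called (adjusted p = 0.777).

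Proteins that the heart shares with slow limb fibres did not move together. Of 7 listed, 5 were on the array and tested; 3 were called higher in dko heart and 1 lower. Myl3, the essential light chain of ventricle and slow fibres, read 21135, 13111 and 45989.8 units in dko heart, against 7046, 4167 and 8786 units in dko leg (log2 difference 1.85 ± 0.36, adjusted p = 0.00182). Csrp3, a protein of the Z-disc, read 25686, 29192 and 51196 units in dko heart, against 14795, 12650.2 and 21189 units in dko leg (log2 difference 1.08 ± 0.18, adjusted p = 0.000519). Tnnc1, the troponin C of heart and slow fibres, read 18721, 18929 and 42007 units in dko heart, against 11874, 9672 and 14006 units in dko leg (log2 difference 1.06 ± 0.25, adjusted p = 0.00705). For all 3 every heart array was above every leg array. Without the replicate block the calls of Myl3 (adjusted p = 0.0928) and Tnnc1 (adjusted p = 0.165) were lost, and that of Tnnc1 also without the arrays numbered 3.

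Myh7, the slow myosin heavy chain that the ventricle also uses, read 12986, 8433 and 8143 units in dko heart, against 17632, 15031 and 16145 units in dko leg. All 3 leg arrays were above all 3 heart arrays, but the log2 difference of -0.74 ± 0.44 was not called (adjusted p = 0.255). Myl2, the regulatory light chain of ventricle and slow fibres, read 1740.2, 60.5 and 7244 units in dko heart, against 18139, 14862 and 25842 units in dko leg (log2 difference -3.71 ± 0.87, adjusted p = 0.00613). Its heart arrays spread widely, with the array numbered 2 near the floor. The call of Myl2 was lost without the block, and without all arrays numbered 1 or all numbered 2. A low Myl2 signal goes against the label of heart muscle for a ventricular marker, whereas the cardiac markers Myh6, Tnni3, Tnnt2, Mybpc3 and Nppb were called higher in dko heart.

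Slow forms found in skeletal muscle fell in dko heart relative to dko leg, 3 of the 3 tested, with a median log2 difference of -3.42. Tnnt1, slow skeletal troponin T, read 287, 2054 and 1814 units in dko heart, against 19171, 22962 and 27836 units in dko leg (log2 difference -4.21 ± 0.36, adjusted p = 7.85e-07). Tnni1, slow skeletal troponin I, read 3358, 2080.2 and 1220.4 units in dko heart, against 23355, 16635 and 34019.8 units in dko leg (log2 difference -3.42 ± 0.40, adjusted p = 1.99e-05). Tpm3, slow tropomyosin, read 2173, 2224 and 779.6 units in dko heart, against 11394, 9749 and 9951 units in dko leg (log2 difference -2.59 ± 0.48, adjusted p = 0.00123). No heart array reached a leg array for these genes.

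Fast-fibre proteins stood at the other end. Of 15 listed, 12 were on the array and 11 passed the filter on low values; 9 were called lower in dko heart and 0 higher, and the median log2 difference was -4.73. Myh1, the myosin heavy chain of fast IIx fibres, read 31, 632 and 17.4 units in dko heart, against 33219, 26915 and 44919.6 units in dko leg (log2 difference -6.81 ± 0.54, adjusted p = 3.93e-07). Tnnt3, fast troponin T, read 245, 273 and 338 units in dko heart, against 39572, 30022 and 47024 units in dko leg (log2 difference -6.42 ± 0.40, adjusted p = 3.25e-08). Mylpf, the fast regulatory light chain, read 10.3, 8.8 and 22.3 units in dko heart, against 8971, 5360.1 and 4244 units in dko leg (log2 difference -5.08 ± 0.36, adjusted p = 1.14e-07). Heart arrays for Mylpf were at the floor of the scale, and 2 of the 3 were for Myh1, so these differences depend on the offset.

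Tpm2, beta-tropomyosin, read 963, 1093 and 1416 units in dko heart, against 36069.8, 28954 and 34862 units in dko leg (log2 difference -4.67 ± 0.19, adjusted p = 3.97e-10). Tnni2, fast troponin I, read 54.4, 192 and 212 units in dko heart, against 5807, 6039 and 5888 units in dko leg (log2 difference -4.29 ± 0.20, adjusted p = 1.96e-09). Actn3, the alpha-actinin of fast fibres, read 445, 231 and 379.5 units in dko heart, against 15205, 17212 and 21767 units in dko leg (log2 difference -5.14 ± 0.84, adjusted p = 0.000407). For these 3 genes heart and leg were separated by a wide gap in every pairing of arrays. Myoz1, a calcineurin-binding protein of the fast Z-disc, read 699, 784 and 335 units in dko heart, against 18821, 16182 and 24613 units in dko leg (log2 difference -4.73 ± 0.41, adjusted p = 1.08e-06). Myh4, the heavy chain of IIb fibres, read 26.4, 281 and 26.6 units in dko heart, against 20815, 15397 and 35507 units in dko leg (log2 difference -6.47 ± 1.0, adjusted p = 0.000255), although its second probe set had a log2 difference of 0.55 and was not called. Tnnc2, fast troponin C, read 725, 925 and 381 units in dko heart, against 8803, 5607 and 31789 units in dko leg (log2 difference -3.87 ± 0.96, adjusted p = 0.00883), and its call was lost without the heart array numbered 3 or without all arrays numbered 1.

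Both members of the fast list that were not called spread widely between arrays of leg. Acta1, skeletal alpha-actin, read 4861, 6807 and 6606 units in dko heart, against 1282, 1915 and 20656 units in dko leg (adjusted p = 0.589). Myl1, the fast essential light chain, read 3746, 4478 and 4195 units in dko heart, against 4583, 2116 and 30032 units in dko leg (adjusted p = 0.668). In each the leg array numbered 3 was the highest of the 6 and another leg array the lowest. Myh2, the heavy chain of IIa fibres, did not pass the filter, with at most 130.3 units in any of the 6 arrays.

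**Figure D2:**
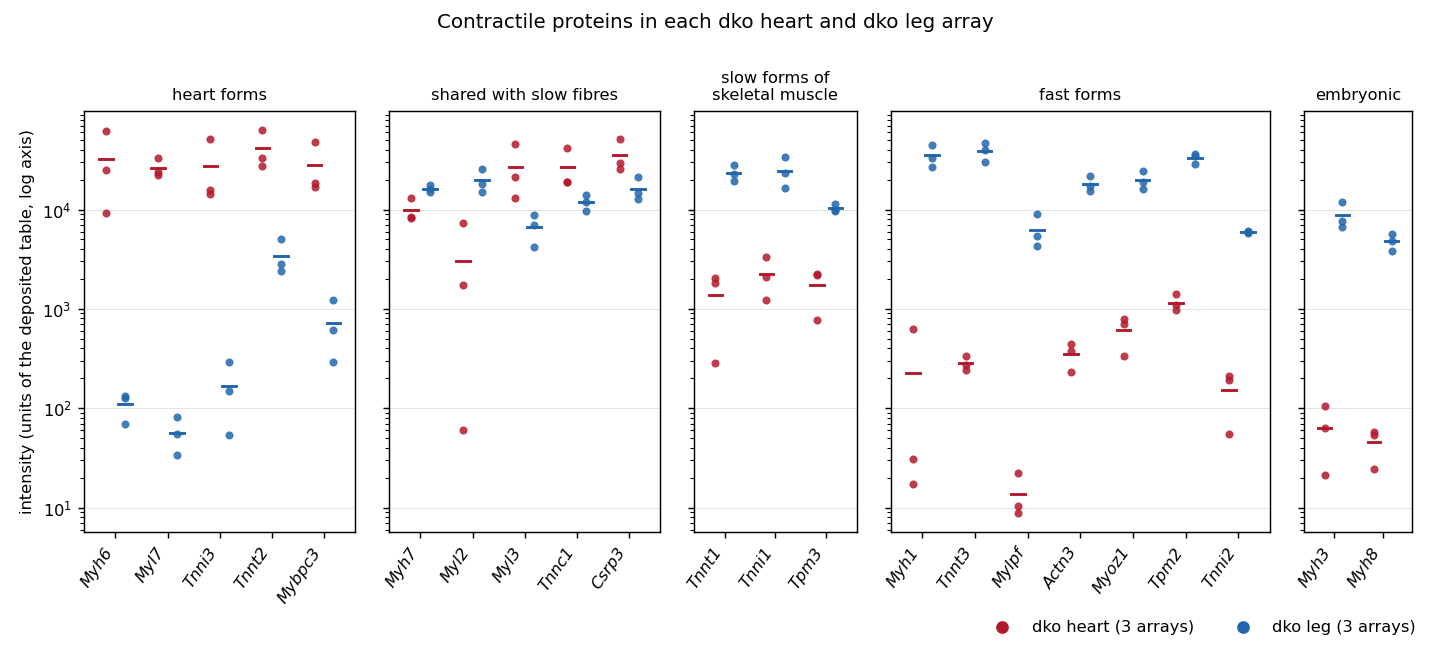
Intensity (units, log axis) of 22 contractile and Z-disc genes in each array, with dko heart in red on the left of each gene and dko leg in blue on the right; points are arrays and bars are means of 3. Heart forms are higher in dko heart and fast and embryonic forms higher in dko leg without overlap, whereas Myh7 and Myl2, shared with slow fibres, lie higher in the leg arrays.

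Sarcomere and Z-disc proteins used by both tissues leaned to lower values in dko heart, with a median log2 difference of -0.52. Of 33 listed 16 were tested, and 2 were called higher and 8 lower in dko heart (2 lower without the block). Fhl2 and Pdlim3 had the highest and the lowest log2 difference on this list. Fhl2, a LIM protein of the cardiac sarcomere, read 28132, 30145 and 45953 units in dko heart, against 1178, 1047 and 1042 units in dko leg (log2 difference 4.76 ± 0.25, adjusted p = 6.15e-09). Pdlim3, an actinin-associated LIM protein, read 1166, 1139 and 722 units in dko heart, against 18354, 20936 and 12204 units in dko leg (log2 difference -3.87 ± 0.14, adjusted p = 2.29e-10). These lay far apart in opposite directions, with no overlap in either.

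Calcium release and entry differed by gene. Of 13 genes tested for cardiac excitation-contraction coupling, 9 were called higher in dko heart and 0 lower (median log2 difference 0.88); of 13 for skeletal coupling, 7 were called lower and 1 higher (median -2.61). Ryr2, the cardiac calcium release channel, read 14149, 24166 and 18995 units in dko heart, against 62.2, 44.6 and 54.4 units in dko leg (log2 difference 6.42 ± 0.24, adjusted p = 2.5e-10). Ryr1, its skeletal counterpart, read 297, 237 and 237 units in dko heart, against 30757, 29215 and 32606 units in dko leg (log2 difference -6.20 ± 0.19, adjusted p = 7.83e-11). Each channel was near the dim end of the scale in the other tissue. Slc8a1, the sodium-calcium exchanger that removes calcium from cardiac cells, read 16769, 22798 and 19745 units in dko heart, against 863, 1147 and 778 units in dko leg (log2 difference 4.19 ± 0.14, adjusted p = 1.02e-10).

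Cacna1c, the pore of the cardiac L-type calcium channel, read 6871, 7473 and 8419 units in dko heart, against 1058, 700.0 and 388 units in dko leg (log2 difference 3.21 ± 0.22, adjusted p = 1.05e-07). Cacna1s, the pore of the skeletal channel and its voltage sensor, read 199.8, 742 and 337 units in dko heart, against 10285, 10581 and 15375 units in dko leg (log2 difference -4.45 ± 0.24, adjusted p = 9.4e-09). The pores differed in opposite directions. Cacnb2, the beta subunit used in the heart, read 4200.1, 4107 and 5453 units in dko heart, against 538, 668 and 317 units in dko leg (log2 difference 2.84 ± 0.20, adjusted p = 1.47e-07). Cacng1, the gamma subunit of the skeletal channel, read 159.8, 408 and 198 units in dko heart, against 11016, 9799 and 20044 units in dko leg (log2 difference -5.0 ± 0.30, adjusted p = 2.66e-08). Neither tissue overlapped the other for the pores or these subunits.

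The calcium pumps of the sarcoplasmic reticulum also differed by isoform. Atp2a2, the pump of heart and slow fibres, read 23837, 25526 and 39851 units in dko heart, against 4687, 5349.8 and 7638 units in dko leg (log2 difference 2.29 ± 0.20, adjusted p = 1.26e-06). Atp2a1, the pump of fast fibres, read 60.6, 348 and 54.9 units in dko heart, against 3535, 2787 and 18717 units in dko leg (log2 difference -4.32 ± 1.02, adjusted p = 0.00636). The leg array numbered 3 was the highest for Atp2a1, and the call was lost when all arrays numbered 1 were left out. Pvalb, the calcium buffer of fast fibres, read 44.2, 254 and 23.6 units in dko heart, against 31766, 29387 and 37909.8 units in dko leg (log2 difference -7.01 ± 0.27, adjusted p = 3.81e-10). Its second, dimmer probe set read 7843, 6144 and 1498 units in dko heart, against 1057, 900.0 and 1196 units in dko leg and was not called, so the probe sets disagree.

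S100a1, a calcium-binding protein that acts on the release channel and the pump, read 17838, 19923 and 28759 units in dko heart, against 3594, 4757 and 5064 units in dko leg (log2 difference 2.25 ± 0.14, adjusted p = 2.62e-08). Sypl2, or mitsugumin 29, a protein of the triad, read 988, 514 and 96.9 units in dko heart, against 12061, 15381 and 17741 units in dko leg (log2 difference -4.67 ± 0.44, adjusted p = 2.45e-06). Camk2b, a calcium-dependent kinase subunit, read 174, 175 and 322 units in dko heart, against 8984, 7889 and 6230.2 units in dko leg (log2 difference -4.34 ± 0.23, adjusted p = 7.99e-09). Heart and leg were apart for all of them. Sln, which encodes the pump inhibitor sarcolipin, read 1001, 442 and 111 units in dko heart, against 736, 669.8 and 154 units in dko leg, and these ranges overlapped (adjusted p = 0.771). Casq2, the cardiac calcium store protein, was called at a log2 difference of 0.64 with overlapping ranges, and that call was lost in 10 of 20 alternatives, among them the fit without the block and the 6 dko arrays alone.

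Of 24 potassium, sodium and chloride channel genes tested, 11 were called higher in dko heart (7 without the arrays numbered 3) and 3 lower, with a median log2 difference of 0.46. Kcnd2, a subunit of the transient outward current, read 723, 1113 and 461 units in dko heart, against 9.4, 21 and 53.2 units in dko leg (log2 difference 2.21 ± 0.34, adjusted p = 0.000266). Kcnk3, a background potassium channel, read 569, 797 and 2503 units in dko heart, against 83.5, 68.3 and 27.6 units in dko leg (log2 difference 2.46 ± 0.41, adjusted p = 0.000473). Kcnh2, the pore of the rapid delayed rectifier, read 3827, 3381 and 4266 units in dko heart, against 1422, 1269 and 779 units in dko leg (log2 difference 1.62 ± 0.25, adjusted p = 0.000256). For all 3 the lowest heart array was above the highest leg array. Kcne1, a subunit of the slow delayed rectifier, read 1194, 1047 and 1493 units in dko heart, against 144, 394 and 348 units in dko leg (log2 difference 1.65 ± 0.34, adjusted p = 0.00225). Abcc8, the sulfonylurea receptor of potassium channels closed by ATP, read 1507, 1737 and 1671 units in dko heart, against 351, 404 and 468 units in dko leg (log2 difference 1.66 ± 0.16, adjusted p = 2.4e-06).

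Among channels that fell in dko heart relative to dko leg, Clcn1, the chloride channel that stabilizes the resting limb fibre, read 368, 239 and 392 units in dko heart, against 3999.7, 3276 and 2163 units in dko leg (log2 difference -2.70 ± 0.46, adjusted p = 0.000585). Kcna7, a voltage-gated potassium channel, read 138, 357 and 401 units in dko heart, against 1571, 1809 and 1883 units in dko leg (log2 difference -2.10 ± 0.19, adjusted p = 1.94e-06). Both were dim in every heart array.

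Genes of the intercalated disc and of cell junctions were mostly higher in dko heart than in dko leg. Of 23 listed, 18 were tested, 12 were called higher and 1 lower, and the median log2 difference was 1.01. Dsp, desmoplakin, which ties desmosomes to desmin filaments, read 23757, 29389.7 and 29181 units in dko heart, against 346, 290.1 and 111 units in dko leg (log2 difference 6.10 ± 0.27, adjusted p = 1.35e-09). Cdh2, N-cadherin, read 14747, 14530.2 and 12541 units in dko heart, against 707, 913 and 449 units in dko leg (log2 difference 4.08 ± 0.16, adjusted p = 4.41e-10). Pkp2, a desmosomal plakophilin, read 5813, 5706 and 11655 units in dko heart, against 487, 642 and 926 units in dko leg (log2 difference 3.16 ± 0.20, adjusted p = 3.81e-08). The gap between tissues was wide for all 3.

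Dsc2 and Dsg2 are the adhesion molecules of the cardiac desmosome. Dsc2 read 1476, 2015 and 1236 units in dko heart, against 35.4, 51.6 and 16.8 units in dko leg (log2 difference 3.10 ± 0.16, adjusted p = 6.15e-09). Dsg2 read 2356, 3456 and 3044 units in dko heart, against 383, 387 and 118 units in dko leg (log2 difference 2.80 ± 0.38, adjusted p = 7.75e-05). Gja1, connexin 43 of the gap junction, read 17826, 21825 and 30516 units in dko heart, against 4454, 4269 and 3299.5 units in dko leg (log2 difference 2.47 ± 0.36, adjusted p = 0.000155). No leg array reached a heart array in this set. Myzap, a protein of the disc named for its link to myocardial zonula adherens, read 8632, 13170.3 and 14194 units in dko heart, against 51.8, 244 and 288 units in dko leg (log2 difference 5.11 ± 0.21, adjusted p = 4.81e-10). Perp, a membrane protein of desmosomes, read 11259.9, 7054 and 11632 units in dko heart, against 49, 19 and 76 units in dko leg (log2 difference 5.54 ± 0.27, adjusted p = 3.59e-09). The exception in the list was Cdh15, M-cadherin of satellite cells and limb fibres, which read 79, 87.2 and 182 units in dko heart, against 900.1, 1383 and 1059 units in dko leg (log2 difference -2.18 ± 0.21, adjusted p = 2.45e-06).

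Natriuretic peptides, hormones that the heart releases when stretched, were higher in dko heart than in dko leg. Of 14 genes tested on the list of natriuretic peptides and cardiac stress genes, 4 were called higher and 5 lower, so the list as a whole did not go one way (median log2 difference -0.24). Nppb, B-type natriuretic peptide, read 20946, 22901 and 26582 units in dko heart, against 485, 229.7 and 48.7 units in dko leg (log2 difference 5.95 ± 0.37, adjusted p = 3.21e-08). Nppa, the atrial peptide, read 17653, 16209.8 and 18264 units in dko heart, against 1749, 1287 and 766 units in dko leg (log2 difference 3.67 ± 0.25, adjusted p = 1.03e-07). Corin, the protease that activates the atrial peptide, read 5848, 5563 and 6345 units in dko heart, against 209, 148 and 159.9 units in dko leg (log2 difference 4.17 ± 0.23, adjusted p = 9.49e-09). Ligands and protease were each without overlap between tissues.

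Ankrd1, a stretch-responsive titin-binding protein, read 28992, 32357 and 26780.2 units in dko heart, against 9335, 12904 and 5734 units in dko leg (log2 difference 1.71 ± 0.29, adjusted p = 0.000573). Here the leg arrays were bright as well. Members of the list called lower in dko heart included Postn, a matrix protein of activated fibroblasts, Fst, the myostatin inhibitor follistatin, and Timp1, an inhibitor of matrix proteases. Fst read 67.6, 55.4 and 112 units in dko heart, against 634, 767 and 1059.6 units in dko leg (log2 difference -2.00 ± 0.25, adjusted p = 3.57e-05). Timp1 read 4232, 2923 and 3929 units in dko heart, against 9524, 13978 and 15939 units in dko leg (log2 difference -1.77 ± 0.27, adjusted p = 0.000204). The leg arrays held the higher values of both in every pair.

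Among 18 genes tested for adrenergic, muscarinic and vasoactive signalling, 9 were called higher in dko heart and 1 lower, with a median log2 difference of 0.74. Adcy6, an adenylyl cyclase downstream of beta receptors, read 7672, 6955 and 8142 units in dko heart, against 1653, 2061 and 1464 units in dko leg (log2 difference 2.04 ± 0.15, adjusted p = 1.96e-07). Rgs2, which shortens signalling of Gq-coupled receptors, read 3167, 3071 and 2683 units in dko heart, against 665, 992 and 617 units in dko leg (log2 difference 1.78 ± 0.21, adjusted p = 2.22e-05). Tissues were separated for both genes.

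Transcription factors differed as well. Of 14 cardiac factors on the array 12 were tested, 9 were called higher in dko heart, 0 lower, and the median log2 difference was 1.56. Hopx, a small homeodomain protein of the heart, read 19491, 25446 and 32126 units in dko heart, against 1304, 1553 and 952 units in dko leg (log2 difference 4.16 ± 0.24, adjusted p = 1.39e-08). Nkx2-5, the homeobox factor of the early heart, read 1741, 4066 and 6381 units in dko heart, against 113, 73.8 and 105 units in dko leg (log2 difference 3.84 ± 0.39, adjusted p = 5.49e-06). Gata6, a zinc finger factor, read 2539.5, 1832 and 4672 units in dko heart, against 226, 79.9 and 134 units in dko leg (log2 difference 3.27 ± 0.27, adjusted p = 6.41e-07). The leg arrays were near the dim end for Nkx2-5 and Gata6. Irx3, a homeobox factor of the conduction system, read 2058, 3488 and 2711 units in dko heart, against 787, 906 and 545 units in dko leg (log2 difference 1.67 ± 0.18, adjusted p = 1.07e-05). Hand2, a bHLH factor of the right ventricle, read 750.4, 532 and 2110.4 units in dko heart, against 108, 148 and 292 units in dko leg (log2 difference 1.74 ± 0.35, adjusted p = 0.0021). Gata4 was called with a log2 difference of 1.63 (adjusted p = 0.0253), a call that was lost in 7 of 20 alternatives, the fit without the block among them.

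Of 13 skeletal muscle factors tested, 6 were called lower in dko heart and 0 higher (median log2 difference -0.76), among them all 4 myogenic bHLH factors. Myf6, also called MRF4, read 114, 65.2 and 70.5 units in dko heart, against 5628, 6978 and 11018 units in dko leg (log2 difference -4.96 ± 0.36, adjusted p = 1.61e-07). Myog, myogenin, which drives the differentiation of myoblasts, read 538, 229 and 516 units in dko heart, against 4362, 3162 and 8905 units in dko leg (log2 difference -3.16 ± 0.27, adjusted p = 8e-07). Myf5, a factor of satellite cells, read 13.2, 8.6 and 40.9 units in dko heart, against 834, 988 and 459.9 units in dko leg (log2 difference -2.27 ± 0.29, adjusted p = 5.57e-05). The leg arrays lay above the heart arrays for each of these. Myod1 read 1692, 1146 and 567 units in dko heart, against 2814, 4292 and 7398 units in dko leg (log2 difference -1.94 ± 0.40, adjusted p = 0.00257). The heart arrays were lower here too, although not at the floor.

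Mef2c, a MADS factor of both tissues, read 499.5, 839 and 1224 units in dko heart, against 6904, 5403 and 9583 units in dko leg (log2 difference -2.90 ± 0.28, adjusted p = 3.58e-06). Of 16 factors used by both tissues, 6 were called higher in dko heart and 3 lower, and Mef2c stood at the low end. Tbx15, a T-box factor of limb muscle and skeleton, read 30.8, 11.5 and 52.3 units in dko heart, against 3834, 2594 and 2986 units in dko leg (log2 difference -4.05 ± 0.27, adjusted p = 7.9e-08). Hoxc9, a factor of body position, read 140.1, 114 and 132 units in dko heart, against 662, 838 and 649.6 units in dko leg (log2 difference -1.58 ± 0.18, adjusted p = 1.53e-05). Hoxa10, a factor of the hindlimb, read 42.4, 6.2 and 33 units in dko heart, against 481, 442 and 209 units in dko leg (log2 difference -1.46 ± 0.21, adjusted p = 0.000145). Of 27 Hox and limb patterning factors tested, from 41 on the array, 7 were called lower in dko heart and 1 higher. The other 19 were not called, and the share called, 29.6%, is near the 23.5% of all probe sets.

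Genes of the neuromuscular junction fell in dko heart relative to dko leg. Of 15 genes tested on the junction list, 9 were called lower in dko heart and 1 higher, with a median log2 difference of -0.79. The 9 include Ckm, muscle creatine kinase, which is on the list but is not a gene of the junction. Chrna1, the acetylcholine receptor alpha subunit, read 44.5, 19.9 and 80.3 units in dko heart, against 4065, 5866 and 6519.8 units in dko leg (log2 difference -4.70 ± 0.17, adjusted p = 2.29e-10). Chrnb1, the beta subunit, read 726, 329 and 262 units in dko heart, against 4553, 5910.0 and 4167 units in dko leg (log2 difference -3.12 ± 0.22, adjusted p = 1.47e-07). Chrng, the gamma subunit of the fetal receptor, read 216, 193 and 566 units in dko heart, against 2329, 2989 and 2384 units in dko leg (log2 difference -2.55 ± 0.30, adjusted p = 2.41e-05). Heart and leg did not overlap for these subunits. Chrne, the epsilon subunit that replaces gamma in adult muscle, read 184, 107 and 161 units in dko heart, against 882, 1059 and 767 units in dko leg (log2 difference -1.75 ± 0.16, adjusted p = 2.06e-06). Fetal and adult subunits were thus both higher in dko leg, with no overlap. Ache, acetylcholinesterase, read 227, 162 and 190.3 units in dko heart, against 876, 1417 and 4393 units in dko leg (log2 difference -2.45 ± 0.43, adjusted p = 0.000701). The call for Chrnd, the delta subunit, at a log2 difference of -0.68 (adjusted p = 0.0391), was lost in 12 of 20 alternatives, among them the fit without the block, the 6 dko arrays alone and both other treatments of low values.

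Promoter sequence was compared because these genes move together: the 250 bases before the start were taken from RefSeq (GRCm38.p6) for the 4169 of 6553 genes tested that had exactly 1 promoter in the supplied table. The hexamer CAGCTG, an E-box that myogenic bHLH factors can bind and that reads the same on both strands, stood in 8.8% of 500 promoters of genes called higher in dko heart, 15.2% of 508 of genes called lower and 10.9% of all 4169. The letters TATAAA, read on the gene's strand, stood in 4.8% of the promoters of genes called higher, 9.06% of those called lower and 5.95% of all. Of 5 motifs searched, the other 3 differed less between the sets: in the same order AGATAA stood in 6.6%, 6.89% and 5.71%. CATTCC stood in 12.8%, 10.6% and 11.1%. AAGGTCA stood in 3.4%, 2.76% and 2.88%, each on both strands. The mean GC content of the 3 sets was 60%, 59.9% and 59.7%. A match is a description of these letters in this window and no test was made. Shown are the windows of 3 genes called higher and 3 called lower in dko heart, to let the motifs be seen in place; each is given 5′ to 3′ on the gene's strand, and capitals mark CAGCTG or TATAAA.
Nppb, chr4:147985650-147985899, + strand: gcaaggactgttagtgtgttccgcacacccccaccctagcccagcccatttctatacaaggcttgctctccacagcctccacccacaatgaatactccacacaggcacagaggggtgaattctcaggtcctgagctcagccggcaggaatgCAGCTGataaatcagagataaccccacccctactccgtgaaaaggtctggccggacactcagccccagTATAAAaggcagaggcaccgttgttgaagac
Mybpc3, chr2:91117894-91118143, + strand: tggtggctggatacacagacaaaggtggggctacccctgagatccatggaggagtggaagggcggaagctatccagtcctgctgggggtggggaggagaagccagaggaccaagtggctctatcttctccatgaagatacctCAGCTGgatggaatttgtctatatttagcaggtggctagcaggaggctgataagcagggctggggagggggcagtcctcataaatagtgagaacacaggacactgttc
Myl7, chr11:5898783-5899032, - strand: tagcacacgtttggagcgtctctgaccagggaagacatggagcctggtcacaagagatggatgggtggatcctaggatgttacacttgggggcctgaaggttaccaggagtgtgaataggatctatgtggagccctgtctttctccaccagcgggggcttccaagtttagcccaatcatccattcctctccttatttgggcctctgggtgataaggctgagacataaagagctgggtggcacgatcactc
Chrna1, chr2:73580339-73580588, - strand: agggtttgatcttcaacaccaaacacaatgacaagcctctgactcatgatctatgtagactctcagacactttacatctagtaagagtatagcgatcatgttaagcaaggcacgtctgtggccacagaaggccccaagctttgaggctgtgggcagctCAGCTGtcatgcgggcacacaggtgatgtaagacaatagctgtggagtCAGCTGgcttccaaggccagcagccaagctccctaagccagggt
Chrng, chr1:87205561-87205810, + strand: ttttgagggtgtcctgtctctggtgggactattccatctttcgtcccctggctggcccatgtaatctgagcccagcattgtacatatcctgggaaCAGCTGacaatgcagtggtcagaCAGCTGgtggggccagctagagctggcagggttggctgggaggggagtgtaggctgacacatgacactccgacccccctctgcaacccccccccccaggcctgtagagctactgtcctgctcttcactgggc
Mylpf, chr7:127211358-127211607, + strand: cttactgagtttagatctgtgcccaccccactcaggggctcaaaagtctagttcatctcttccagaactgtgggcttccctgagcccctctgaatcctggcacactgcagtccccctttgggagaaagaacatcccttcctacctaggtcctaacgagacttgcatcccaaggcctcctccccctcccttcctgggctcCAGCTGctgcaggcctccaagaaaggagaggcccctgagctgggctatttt

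The receptor subunits Chrna1 and Chrng each hold CAGCTG 2 times in these windows, and the fast light chain Mylpf holds it 1 time. Nppb holds 1 CAGCTG and 1 TATAAA, which begins 31 bases before the start, and Mybpc3 holds 1 CAGCTG. Myl7 holds neither. Of the genes tested with 1 promoter, CAGCTG stood in 5 of 7 on the fast-fibre list (Acta1, Myh4, Myl1, Mylpf and Tpm2). CAGCTG also stood in 4 of 8 on the junction list (Chrna1, Chrne, Chrng and Ckm, the last not a junction gene). It stood in 4 of 16 on the list of embryonic and regenerating muscle, in 4 of 28 on the fatty acid list and in 1 of 6 on the cardiac contractile list. Another motif, CATTCC, stood in 4 of the 7 fast-fibre promoters.

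Genes listed for embryonic and regenerating muscle fell in dko heart relative to dko leg. Of 24 tested, 18 were called lower and 1, Tnnt2, higher, and the median log2 difference was -1.68. The 18 are not a separate count, since Myod1, Myog, Myf5, Chrna1, Chrng, Cdh15, Des, Fst and Sparc are also on other lists counted here. Some members, such as Chrna1 and Des, are not particular to regeneration. Myh3, the embryonic myosin heavy chain, read 106, 21.3 and 63.5 units in dko heart, against 6628, 11846 and 7648 units in dko leg (log2 difference -5.24 ± 0.28, adjusted p = 7.99e-09). Myh8, the perinatal heavy chain, read 57.4, 24.6 and 54.2 units in dko heart, against 4812, 5722 and 3802 units in dko leg (log2 difference -4.53 ± 0.18, adjusted p = 3.97e-10). Peg3, an imprinted gene active in satellite cells, read 1645, 1685 and 1647 units in dko heart, against 11696, 14538 and 16610.4 units in dko leg (log2 difference -2.97 ± 0.17, adjusted p = 1.82e-08). Both myosins were near the floor in heart and bright in leg. Bex1, a gene of regenerating muscle, read 17.5, 35.8 and 125 units in dko heart, against 652, 1075 and 1351 units in dko leg (log2 difference -2.39 ± 0.15, adjusted p = 4.01e-08). Cdkn1c, a cell cycle inhibitor, read 764, 1471 and 1807 units in dko heart, against 5132, 13548 and 10893 units in dko leg (log2 difference -2.69 ± 0.17, adjusted p = 3.85e-08). The leg values of Cdkn1c differed by array, with the array numbered 1 the lowest.

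Of 27 insulin-like growth factor and muscle growth genes tested, 3 were called higher in dko heart and 10 lower, with a median log2 difference of -0.12. The share called was 48.1%, against 23.5% of all probe sets. Mstn, myostatin, read 281, 258 and 188 units in dko heart, against 880.1, 643 and 663 units in dko leg (log2 difference -1.13 ± 0.19, adjusted p = 0.000455). Fgf1, a fibroblast growth factor, read 2749, 3656 and 3617 units in dko heart, against 1174, 820.3 and 792 units in dko leg (log2 difference 1.69 ± 0.18, adjusted p = 8.95e-06). Myostatin and its inhibitor follistatin were thus both lower in dko heart. Among 24 cell division genes, 6 were called lower and 1 higher, a share of 29.2% that is near the 23.5% of all probe sets. Cdk1, the kinase that starts mitosis, read 171, 112 and 124 units in dko heart, against 604, 877 and 1124 units in dko leg (log2 difference -1.75 ± 0.30, adjusted p = 0.000614). Rrm2, a subunit of ribonucleotide reductase, read 231, 288 and 246 units in dko heart, against 951, 795 and 1043 units in dko leg (log2 difference -1.38 ± 0.16, adjusted p = 2.46e-05). Both were lower in every heart array.

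The list of the dystrophin-associated complex also holds linker, calpain and annexin genes, and was called at a share near that of all probe sets. Of 20 tested, 1 was called higher in dko heart and 5 lower, which is 30% against 23.5%. The median log2 difference was -0.04. Capn3, Plec, Anxa1 and Anxa2, which are not parts of the complex itself, were among the 5 lower, with Cav3. Dag1, Sgca, Sgcb, Sgcd and Sgce were not called. Dag1, dystroglycan, read 8539.6, 12487 and 13516 units in dko heart, against 8734, 13567 and 12347 units in dko leg (adjusted p = 0.98). Sgcb, beta-sarcoglycan, read 1546, 2618 and 2579.7 units in dko heart, against 1598, 2523 and 2465 units in dko leg (adjusted p = 0.932). Heart and leg overlapped for both. Sspn, sarcospan, read 10136, 11135 and 14769.9 units in dko heart, against 5229, 5906 and 8118 units in dko leg (log2 difference 0.89 ± 0.14, adjusted p = 0.000261). Cav3, caveolin 3, read 7176, 9720.4 and 5106 units in dko heart, against 13609.9, 19483 and 10737 units in dko leg (log2 difference -0.98 ± 0.15, adjusted p = 0.000226). Both calls were lost without the block, although neither gene overlapped. Capn3, the muscle calpain, read 2386, 1906 and 991 units in dko heart, against 7711, 6674 and 6312 units in dko leg (log2 difference -1.94 ± 0.21, adjusted p = 7.72e-06). Plec, plectin, a cytoskeletal linker, read 1489.8, 1921 and 1737 units in dko heart, against 9439, 10909 and 3247 units in dko leg (log2 difference -1.93 ± 0.30, adjusted p = 0.000253). Anxa1, a phospholipid-binding protein of membrane repair, read 2768, 3166 and 2669.6 units in dko heart, against 12533, 11791 and 9348 units in dko leg (log2 difference -1.90 ± 0.21, adjusted p = 1.07e-05). These last 3 genes were lower in every heart array.

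Genes of fatty acid use were mostly higher in dko heart than in dko leg. Of 39 listed genes on the array 38 were tested, 27 were called higher in dko heart and 1 lower, and the median log2 difference was 1.06. Without the arrays numbered 3 the counts were 25 and 1, and without the block 18 and 1. Lpl, lipoprotein lipase, which frees fatty acids at the vessel wall, read 27895, 32458 and 33157 units in dko heart, against 8027, 7995 and 7309 units in dko leg (log2 difference 1.98 ± 0.22, adjusted p = 1.07e-05). Cd36, which brings them into the cell, read 3537, 6088 and 3223 units in dko heart, against 966, 1356 and 909 units in dko leg (log2 difference 1.80 ± 0.18, adjusted p = 4.23e-06). Slc25a20, the carnitine carrier of mitochondria, read 13587, 13442 and 15030.4 units in dko heart, against 5134, 5258 and 5747 units in dko leg (log2 difference 1.35 ± 0.12, adjusted p = 8.83e-07). In each the heart arrays were above the leg arrays without overlap.

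Within the mitochondrion, Decr1, a reductase for unsaturated fatty acids, read 6536, 7909 and 8495 units in dko heart, against 1469, 1594 and 1863 units in dko leg (log2 difference 2.11 ± 0.13, adjusted p = 2.48e-08). Etfdh, which passes electrons from fatty acid oxidation to ubiquinone, read 18589, 18648 and 11257 units in dko heart, against 4742, 4575 and 2426 units in dko leg (log2 difference 2.02 ± 0.15, adjusted p = 1.92e-07). Acadl, the long-chain acyl-CoA dehydrogenase, read 14952, 13332 and 17093 units in dko heart, against 6644, 4453 and 5599.5 units in dko leg (log2 difference 1.43 ± 0.16, adjusted p = 1.21e-05). These enzymes were higher in every heart array. Hadhb, a subunit of the trifunctional protein, read 29607, 31519 and 50262 units in dko heart, against 15924, 15869.8 and 17393 units in dko leg (log2 difference 1.13 ± 0.17, adjusted p = 0.000248). It too was higher in every heart array. The regulators of this pathway were also called higher. Ppara, a nuclear receptor for fatty acids, read 2642, 3268 and 4756 units in dko heart, against 1484, 1101 and 1021 units in dko leg (log2 difference 1.42 ± 0.20, adjusted p = 0.000105). Ppargc1a, a coactivator of mitochondrial genes, read 656, 1443 and 1550.1 units in dko heart, against 217, 538 and 359.6 units in dko leg (log2 difference 1.33 ± 0.18, adjusted p = 7.77e-05), a call lost without the block. The listed gene called lower was Acsl4, an acyl-CoA synthetase for arachidonic acid, which read 895, 1099 and 700.3 units in dko heart, against 2394, 2190.3 and 1431 units in dko leg (log2 difference -1.02 ± 0.15, adjusted p = 0.000149).

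Ketone body and branched-chain amino acid genes went the same way, with 10 of 12 called higher in dko heart (6 without the block), 0 lower and a median log2 difference of 0.95. Oxct1, the enzyme that activates ketone bodies for use, read 13028, 18153 and 19936 units in dko heart, against 4046, 6029 and 8002 units in dko leg (log2 difference 1.5 ± 0.14, adjusted p = 1.83e-06). Bckdhb, a subunit of the branched-chain keto acid dehydrogenase, read 3706, 4825 and 4815 units in dko heart, against 1282, 1839 and 1346 units in dko leg (log2 difference 1.48 ± 0.18, adjusted p = 3.57e-05). In the tricarboxylic acid cycle and pyruvate use 12 of 26 were called higher and 0 lower (median 0.49); without the arrays numbered 3 there were 7, and without the block 5. Idh2, mitochondrial isocitrate dehydrogenase, read 21508, 18889.8 and 38105 units in dko heart, against 5376, 3798 and 8631 units in dko leg (log2 difference 2.12 ± 0.13, adjusted p = 3.7e-08). Sdha, a subunit of succinate dehydrogenase, read 10918, 11018 and 10559 units in dko heart, against 6321, 5505 and 5188 units in dko leg (log2 difference 0.92 ± 0.12, adjusted p = 5.91e-05). These genes did not overlap between tissues.

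Most differences in the respiratory chain were small. Of 64 oxidative phosphorylation genes tested, 20 were called higher in dko heart and 2 lower. The share called was 34.4%, against 23.5% of all probe sets, and the median log2 difference was 0.21. Without the arrays numbered 3 the counts were 5 and 3, and without the block 4 and 0, so most of these calls need the full set of arrays and the block. Ndufs1, the largest subunit of complex I, read 22034, 25922 and 31200.2 units in dko heart, against 14108, 16682 and 16939 units in dko leg (log2 difference 0.71 ± 0.11, adjusted p = 0.000337). Cox7a1, a complex IV subunit of muscle, read 18608, 26699.9 and 21048 units in dko heart, against 12096, 10599 and 11295 units in dko leg (log2 difference 0.94 ± 0.14, adjusted p = 0.000199). Both were higher in every heart array by less than the fatty acid enzymes named above. The 2 genes called lower were Cox6a2, at a log2 difference of -1.60, and Atp5pb, at -0.92.

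Glycolysis and glycogen genes did not go one way: of 31 tested, 5 were called higher in dko heart and 8 lower. The share called was 41.9%, against 23.5% of all probe sets, and the median log2 difference was -0.12. Pygb, the brain form of glycogen phosphorylase, read 7349.7, 9346 and 12158 units in dko heart, against 158, 185 and 578 units in dko leg (log2 difference 4.45 ± 0.24, adjusted p = 7.99e-09), whereas Pygm, the muscle form, read 19524, 22524 and 33159.7 units in dko heart, against 29722, 24406 and 35681 units in dko leg and was not called (adjusted p = 0.411). Ldhb, the lactate dehydrogenase subunit of oxidative tissue, read 8880.1, 14166 and 30863 units in dko heart, against 1134, 466 and 1412 units in dko leg (log2 difference 3.87 ± 0.25, adjusted p = 4.89e-08). Ldha, the subunit of glycolytic muscle, read 13919, 13832 and 43222 units in dko heart, against 8905, 1485 and 26096 units in dko leg, and was not called. Pfkl, the liver form of phosphofructokinase, read 5488, 7123 and 7869.7 units in dko heart, against 1584, 1508 and 1951 units in dko leg (log2 difference 1.91 ± 0.16, adjusted p = 6.12e-07). Heart arrays held the higher values of Pygb, Ldhb and Pfkl without overlap.

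Among those called lower, Gpd1, the cytosolic glycerol phosphate dehydrogenase, read 1509.6, 1829 and 1649 units in dko heart, against 6739, 6434 and 17249.8 units in dko leg (log2 difference -2.34 ± 0.42, adjusted p = 0.000942). Phkg1 and Phka1, the catalytic and a regulatory subunit of muscle phosphorylase kinase, were also lower in dko heart: Phkg1 read 739.6, 827 and 944 units in dko heart, against 3565, 4424 and 5597 units in dko leg (log2 difference -2.21 ± 0.14, adjusted p = 3.4e-08). Phka1 read 1381, 1134 and 1049.5 units in dko heart, against 3777, 4259 and 5574 units in dko leg (log2 difference -1.79 ± 0.22, adjusted p = 3.68e-05). Gys1, muscle glycogen synthase, read 7614, 5857 and 9454 units in dko heart, against 17663, 17281 and 26927 units in dko leg (log2 difference -1.41 ± 0.16, adjusted p = 1.41e-05). The leg arrays were higher in every pair. Car3, a carbonic anhydrase of slow fibres and fat, read 1337, 69.2 and 708 units in dko heart, against 35029, 24468 and 33548 units in dko leg (log2 difference -5.51 ± 0.53, adjusted p = 2.65e-06). Ckm, muscle creatine kinase, read 7229.9, 8132 and 7657 units in dko heart, against 20476, 18484 and 31029.9 units in dko leg (log2 difference -1.55 ± 0.35, adjusted p = 0.00435), although its second probe set had a log2 difference of 0.26.

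Other cell types were read in the same RNA, and in bulk samples fewer cells of a type and less RNA per cell cannot be told apart. Of 26 macrophage markers that passed the filter, from 29 on the array, 19 were called lower in dko heart and 0 higher, with a median log2 difference of -1.0. Their summed intensity over the 29 ran from 47501 to 50637 units in dko heart, against 85444 to 155699 units in dko leg. Lgals3, galectin 3, read 783, 708 and 1443 units in dko heart, against 4773, 8584 and 11425 units in dko leg (log2 difference -2.85 ± 0.29, adjusted p = 4.36e-06). Ctss, cathepsin S, read 3869.8, 3623 and 4309.8 units in dko heart, against 14129, 20427 and 25306 units in dko leg (log2 difference -2.26 ± 0.24, adjusted p = 7.11e-06). Cd68, a lysosomal marker, read 1388, 1098 and 1274 units in dko heart, against 3135, 3452 and 5383 units in dko leg (log2 difference -1.52 ± 0.23, adjusted p = 0.000218). Leg values were above heart values for all 3. Ccr2, the chemokine receptor of recruited monocytes, read 326, 394 and 219 units in dko heart, against 945, 2139.7 and 1436 units in dko leg (log2 difference -1.76 ± 0.21, adjusted p = 2.87e-05). No heart value of Ccr2 reached the lowest leg value. Without the arrays numbered 3 the count called lower was 9, and without the block it was 13.

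Of 27 antigen presentation and interferon genes, 1 was called higher in dko heart and 6 lower, a share of 25.9% against 23.5% over all probe sets, and 3 were lower without the block. The members with the lowest log2 differences were H2-Aa and H2-Ab1, which encode MHC class II chains. H2-Aa read 2175, 1525 and 2865 units in dko heart, against 7538, 6179 and 11029 units in dko leg (log2 difference -1.84 ± 0.22, adjusted p = 3.05e-05). H2-Ab1 read 1403, 1139.5 and 1323 units in dko heart, against 3361, 3541 and 5387 units in dko leg (log2 difference -1.52 ± 0.18, adjusted p = 1.98e-05). Among 21 complement and chemokine genes, 2 were called higher and 10 lower (57.1% called). Cxcl14, a chemokine of muscle and epithelium, read 193, 100.1 and 220.3 units in dko heart, against 2339, 2087 and 2785 units in dko leg (log2 difference -2.94 ± 0.24, adjusted p = 5.17e-07). Ccl8, a monocyte chemokine, read 340.1, 654 and 182 units in dko heart, against 3861, 2995 and 3054 units in dko leg (log2 difference -2.72 ± 0.45, adjusted p = 0.000456). Leg arrays were higher in every pair. Of 13 T cell and B cell markers tested, 2 were called lower and 11 were not called, a share called of 15.4%.

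Extracellular matrix genes split, with 58 tested, 8 called higher in dko heart and 25 lower, and a median log2 difference of -0.44. The share called was 56.9%, against 23.5% of all probe sets tested. Of all probe sets tested, 12.0% were called higher and 11.5% lower. Without the arrays numbered 3 the counts were 3 and 20, and without the block 4 and 20. Fibrillar collagens were among the lower genes. Col1a1 read 5042, 5032 and 11926 units in dko heart, against 21483, 21741 and 37274 units in dko leg (log2 difference -1.92 ± 0.17, adjusted p = 1.33e-06). Col3a1 read 5342, 6295 and 9706 units in dko heart, against 24209, 26991 and 35093 units in dko leg (log2 difference -2.02 ± 0.21, adjusted p = 5.66e-06). Col5a2 read 1659, 2527 and 3306 units in dko heart, against 11843, 19030.2 and 20964 units in dko leg (log2 difference -2.72 ± 0.15, adjusted p = 7.99e-09). Leg was above heart for each without overlap. Lum, lumican, a proteoglycan of collagen fibrils, read 7799, 8509 and 6853 units in dko heart, against 13326, 16927 and 14195 units in dko leg (log2 difference -0.92 ± 0.16, adjusted p = 0.000522). Postn, periostin, read 4187, 3264 and 5255 units in dko heart, against 16546, 25011 and 22695 units in dko leg (log2 difference -2.30 ± 0.19, adjusted p = 6.77e-07). Lox, which cross-links collagen, read 516, 297 and 354 units in dko heart, against 1828, 2982 and 2208 units in dko leg (log2 difference -2.17 ± 0.30, adjusted p = 9.37e-05). These 3 genes also were higher in every leg array.

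Of the 8 matrix genes called higher in dko heart, values are given for a pair. Fbln1, fibulin 1, read 6606, 7579 and 13763 units in dko heart, against 2794, 2088 and 2851 units in dko leg (log2 difference 1.73 ± 0.23, adjusted p = 6.29e-05). Lama5, a laminin of vessel basement membrane, read 2582, 2517 and 3162 units in dko heart, against 795, 815 and 1329 units in dko leg (log2 difference 1.37 ± 0.23, adjusted p = 0.000561). Both separated the tissues. The markers of macrophages given above moved with the collagens, and their part in the matrix result was not tested.

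Endothelial markers were mostly higher in dko heart than in dko leg. Of 18 tested, 14 were called higher and 0 lower, with a median log2 difference of 1.0. Their summed intensity ran from 57591 to 77349 units in dko heart, against 31754 to 38860 units in dko leg. Without the block 9 were called higher. Eng, endoglin, read 11906, 12871 and 21298 units in dko heart, against 4376, 4345 and 4347 units in dko leg (log2 difference 1.73 ± 0.21, adjusted p = 2.76e-05). Vwf, von Willebrand factor, read 3104, 3463 and 4016 units in dko heart, against 974.7, 1325 and 1410.2 units in dko leg (log2 difference 1.40 ± 0.15, adjusted p = 6.94e-06). Kdr, the main receptor for VEGF, read 1289, 1717 and 1314 units in dko heart, against 847, 775 and 355 units in dko leg (log2 difference 1.01 ± 0.19, adjusted p = 0.0014). Their heart and leg arrays did not overlap. Sox18, an endothelial transcription factor, read 3784, 4719 and 5671 units in dko heart, against 1083, 2026 and 2384 units in dko leg (log2 difference 1.34 ± 0.16, adjusted p = 2.46e-05). It did not overlap between tissues either. Pecam1, another defining marker, read 2186, 1394 and 670.0 units in dko heart, against 1784, 1272 and 499 units in dko leg, with overlapping ranges, and was not called.

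**Figure D3:**
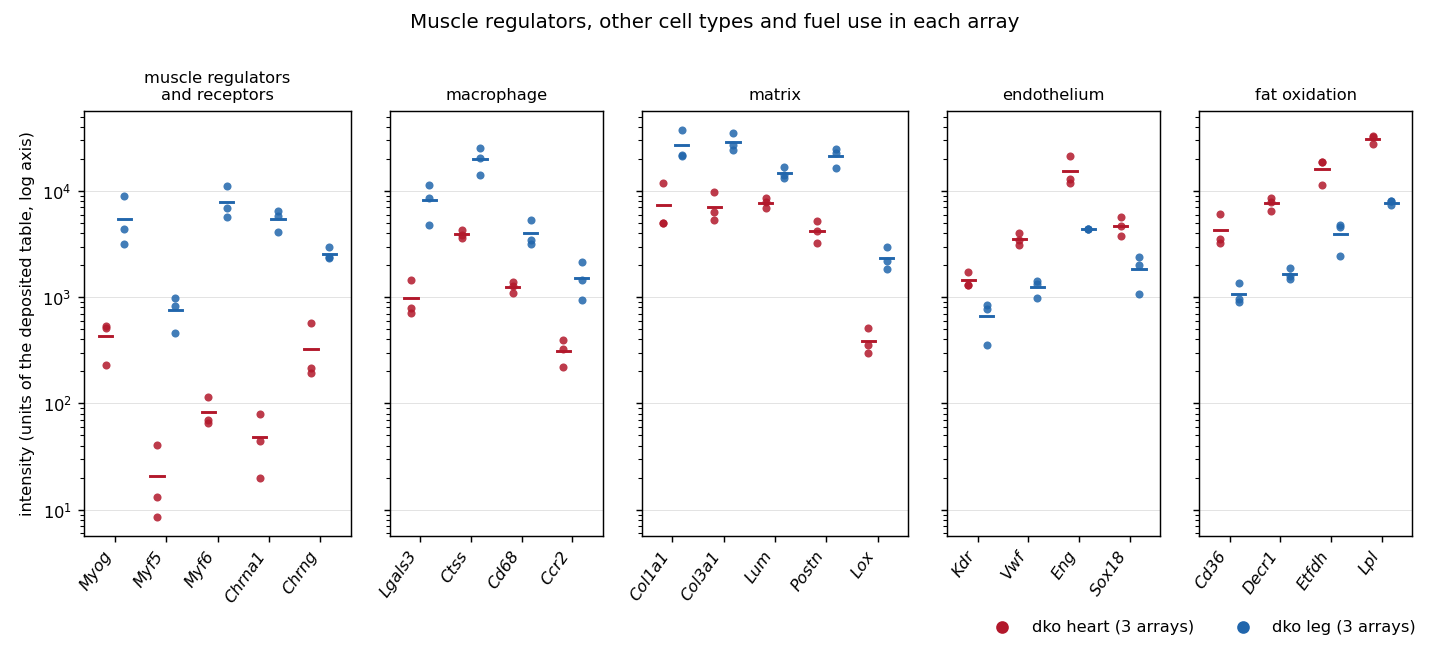
Intensity (units, log axis) of 22 genes in each array, with dko heart in red on the left of each gene and dko leg in blue on the right; points are arrays and bars are means of 3. The muscle regulators, receptors, macrophage markers and matrix genes shown lie higher in dko leg. The endothelial and fat oxidation genes shown lie higher in dko heart, and no gene shown overlaps. The genes were chosen from longer lists. Members that were not called, such as Pecam1, or that went the other way, such as Fbln1, are not shown.

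Markers of other cell types differed in how many were called, against 23.5% of all probe sets. Of 10 smooth muscle and pericyte markers, 1 was called, lower in dko heart, and 9 were not. Of 12 nerve and Schwann cell markers, 2 were called lower, and of 8 tendon, cartilage and bone markers, 1 was. Among 16 adipocyte markers 4 were called higher and 2 lower (37.5%), but the fat hormone Adipoq read 2301, 447 and 385 units in dko heart, against 769.8, 802 and 481 units in dko leg and was not called (adjusted p = 0.791). Of 13 skin and epithelial markers, 3 were called higher and 2 lower (38.5%); Upk3b and Wt1, markers of the mesothelium, were among the higher ones, with log2 differences of 1.41 and 0.73, and each call was lost in 6 of the alternatives run, the fit without the block among them. Their part in the results was not tested.

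Blood cell genes gave mixed readings. Alas2, the heme synthesis enzyme of red cell precursors, read 7179, 10185 and 10313 units in dko heart, against 437, 289.7 and 132 units in dko leg (log2 difference 4.42 ± 0.36, adjusted p = 5.48e-07). Hbb-b2, a beta globin, read 32848, 10202 and 38779 units in dko heart, against 5376, 2982 and 2302 units in dko leg (log2 difference 2.76 ± 0.46, adjusted p = 0.000463). Both were higher in every heart array. Hba-a1, alpha globin, read 1191, 2395 and 20871 units in dko heart, against 13598, 10947 and 13015 units in dko leg, so that the tissues overlapped and it was not called (adjusted p = 0.161). Of 7 blood cell markers tested, 3 were called higher in dko heart and 0 lower (42.9% called, against 23.5% of all probe sets).

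Ribosomal protein genes were close between tissues. Of 17 ribosomal protein genes, 1 was called lower in dko heart and 16 were not called, with a median log2 difference of -0.01. Of 26 proteasome and muscle ubiquitin ligase genes, 14 were called lower and 1 higher (57.7% called), with a median log2 difference of -0.47; without the arrays numbered 3 these counts were 6 and 0, and without the block 5 and 0. Psmb5, a catalytic subunit, read 5959, 6441 and 8205 units in dko heart, against 11513, 11287 and 17604 units in dko leg (log2 difference -0.94 ± 0.13, adjusted p = 8.37e-05). Among 28 antioxidant and heat shock genes 9 were called higher and 3 lower (42.9% called). Gsta4, a glutathione transferase for lipid aldehydes, read 1083, 908 and 1473 units in dko heart, against 72.8, 52.6 and 244 units in dko leg (log2 difference 2.23 ± 0.25, adjusted p = 1.34e-05). Hspa1b, an inducible heat shock protein, read 675, 384 and 446 units in dko heart, against 1513, 1517 and 1106 units in dko leg (log2 difference -1.22 ± 0.23, adjusted p = 0.00117). Each of these genes separated the tissues.

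**Figure D4:**
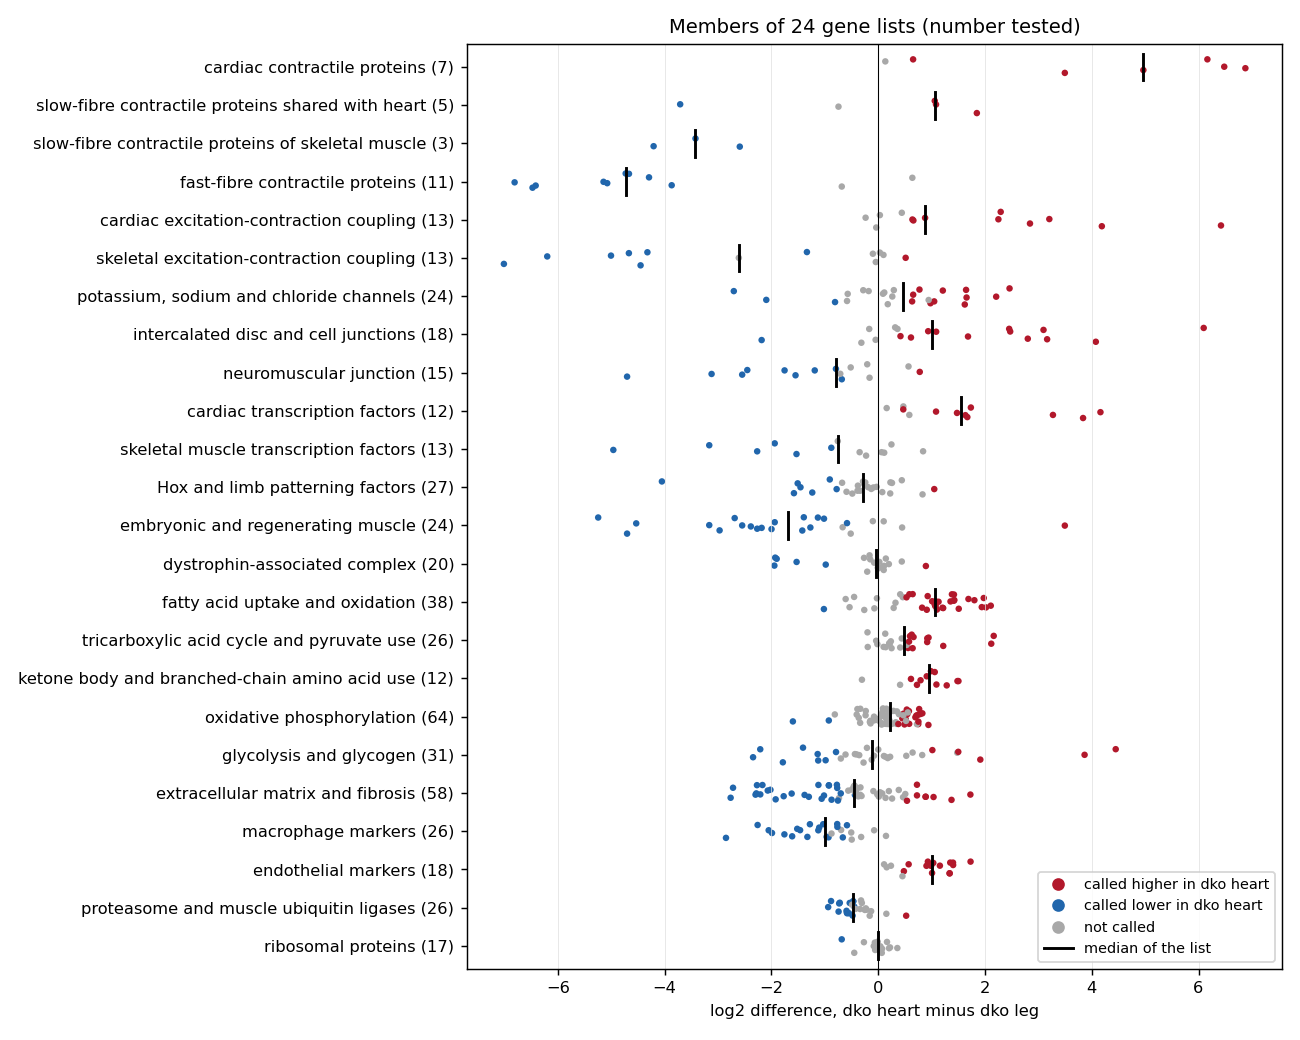
Each row is a gene list with the number of members tested, and each point is the log2 difference of a member, dko heart minus dko leg, in red where it was called higher, blue where it was called lower and grey where it was not called; the black bar is the median. Medians run from 4.97 for cardiac contractile proteins to -4.73 for fast-fibre proteins, and ribosomal proteins lie at -0.01.

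Other genes at the extremes belonged to no single group. Frmd5, a membrane-associated FERM protein, read 6808, 4549 and 3835 units in dko heart, against 236, 186 and 24.9 units in dko leg (log2 difference 4.08 ± 0.20, adjusted p = 4.17e-09). Rbpms, an RNA-binding protein, read 9420.1, 10167 and 17614 units in dko heart, against 448, 356 and 254 units in dko leg (log2 difference 4.56 ± 0.34, adjusted p = 2.47e-07). Ces1d, a carboxylesterase, read 3133, 3046 and 2703 units in dko heart, against 31.4, 23.2 and 20.9 units in dko leg (log2 difference 4.03 ± 0.33, adjusted p = 5.92e-07). All 3 were dim in every leg array.

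Whether the contrast of heart and leg is the same in dko as in mdx mice, which keep utrophin, was tested as a difference of differences. Of 8895 probe sets, 4 were called, or 0.045%, and in all 4 the heart minus leg difference was lower in dko. At an unadjusted p under 0.05 there were 844, against 445 that make up 5% of those tested. Without the replicate block 0 were called, and 259 passed at the unadjusted level. In mdx mice 1042 probe sets (11.7%) were called higher in heart and 984 (11.1%) lower. Of the calls, 1317 were shared, which is 62.9% of the dko calls and 65% of the mdx calls, and all 1317 had the same sign. The arrays of each genotype are separate, although the replicate term and the spread were estimated from all of them.

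Myh7 had the largest difference of the 3 named genes called. It read 12986, 8433 and 8143 units in dko heart, against 17632, 15031 and 16145 units in dko leg; in mdx mice it had 7783, 7145 and 7815 units in heart, against 241.2, 1999 and 363.0 units in leg. The dko leg arrays were thus the highest of the 12, and mdx leg arrays the lowest. The log2 difference was -0.74 in dko and 3.32 in mdx, and the difference between them was -4.06 ± 0.62 (adjusted p = 0.0342).

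Tnnc1 had 23055.5, 13655 and 46178 units in mdx heart, against 2344, 1361 and 2348 units in mdx leg. Its log2 difference was 1.06 in dko and 3.53 in mdx, a difference of -2.47 ± 0.36 (adjusted p = 0.0327). Atp2a2 had 26524, 22213 and 55913 units in mdx heart, against 1576, 1169 and 2443 units in mdx leg. Its log2 difference was 2.29 in dko and 4.14 in mdx, a difference of -1.85 ± 0.29 (adjusted p = 0.0342). Heart values overlapped between dko and mdx for both genes, while every dko leg array was above every mdx leg array.

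The calls depend on the settings: of 19 alternatives run, Tnnc1 was not called in 10, Myh7 in 11 and Atp2a2 in 13. The count of calls was 0 without the heart array numbered 3, without the leg array numbered 2, and without all arrays numbered 1 or 3. All 3 are the forms that heart shares with slow limb fibres. The other genes of slow fibres were not called in this test. Myl2 had a log2 difference of -3.71 in dko and 1.68 in mdx (adjusted p of the difference = 0.154). Tnnt1 had -4.21 in dko and -1.75 in mdx (adjusted p = 0.139). Tpm3 had -2.59 in dko and -0.75 in mdx (adjusted p = 0.408).

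The 7 further named genes with the lowest adjusted p for this difference were Col8a1, C1qtnf3, Tubb2a, Tlcd4, H2-DMb1, Cdkn1c and Tnnt1, none of them called. C1qtnf3, a secreted protein related to adiponectin, read 6, 44.3 and 58.7 units in dko heart, against 2705, 5275 and 3731 units in dko leg, with a log2 difference of -4.29 in dko and -2.26 in mdx (adjusted p of the difference = 0.139). Col8a1, a short-chain collagen, had a log2 difference of -1.38 in dko and -0.16 in mdx (adjusted p = 0.139). H2-DMb1, which helps to load MHC class II, had -1.49 in dko and 0.04 in mdx (adjusted p = 0.139). The median of the macrophage list was -1.0 in dko and -0.33 in mdx, and 0 of its members were called for the difference.

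**Figure D5:**
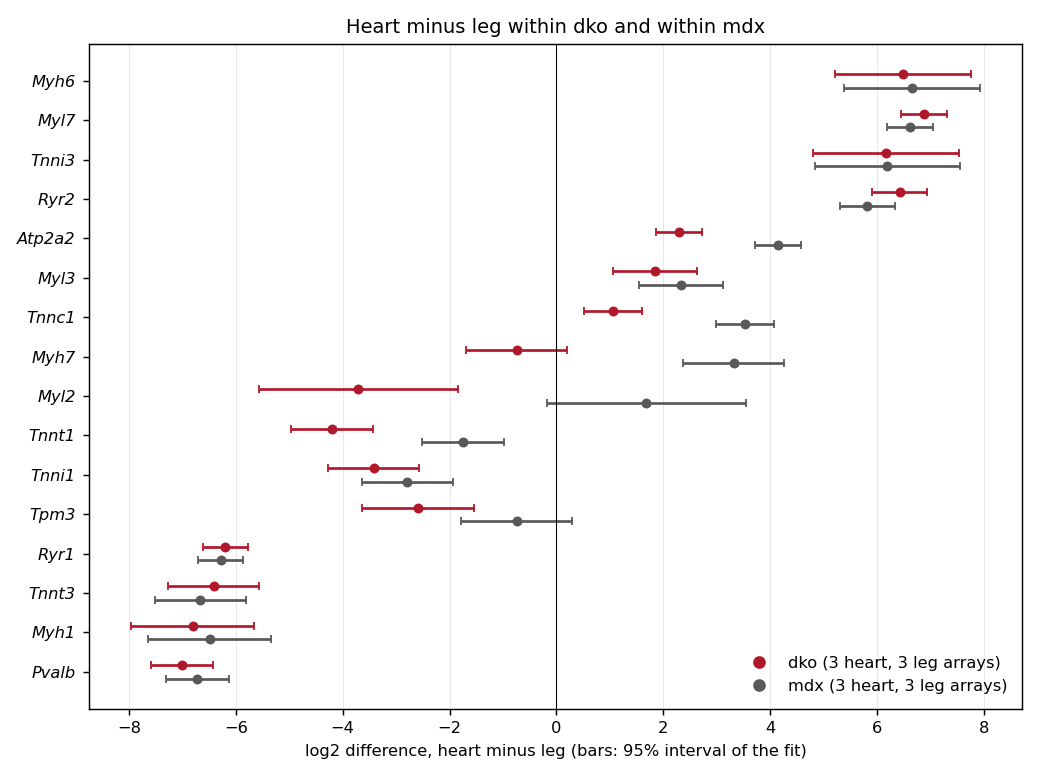
Log2 difference, heart minus leg, with its 95% interval from the fit, for 16 muscle genes in dko (red, upper of each pair) and in mdx (grey, lower of each pair). Heart forms at the top and fast forms at the bottom lie close together in both genotypes. Atp2a2, Tnnc1 and Myh7 lie further left in dko, at 2.29, 1.06 and -0.74, than in mdx, at 4.14, 3.53 and 3.32. Myl2, Tnnt1 and Tpm3 also lie further left in dko than in mdx, but were not called for the difference.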

How the data were processed

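The value table held 12488 probe sets for 18 arrays, of which 66 were controls. Its values are intensities summarised and deposited by the authors; the labels name a standard Affymetrix protocol and no software. In every array the mean after trimming 2% at each end was close to 1501, so the table was taken as scaled already. Symbols came from GEO's platform annotation: 10833 probe sets had 1 symbol, 396 several and 1193 none, and a gene is named only from probe sets with 1. No detection calls were used; a probe set was tested if it exceeded its array's 40th percentile in at least 3 of 18 arrays. The fit was made with limma 3.58.1 in R 4.3.3 on log2(intensity + 166.075), with 10 residual degrees of freedom and Benjamini-Hochberg adjustment over 8895 probe sets, and was tested on simulated data. The offset is the median, over arrays, of the 25th percentile. For a gene with several probe sets, the one brightest on average over the 18 arrays was used. Deviations from group means of dko heart and dko leg arrays of the same number correlated at 0.524, 0.387 and 0.698 across probe sets. For different numbers the correlations ran from -0.542 to 0.175. Deviations within a group cancel out, so the correlations for same and for different numbers are not independent. The number was used as a block, and what it marks is not stated in the labels. Named genes are the 20 highest and 20 lowest without overlap, members of the gene lists, Dmd and Utrn, and the 10 with the lowest p for the difference between dko and mdx. The comparison, the lists and the named genes were chosen with earlier results of these data known. The number of arrays limits the precision.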

Additional observations from a re-analysis of the deposited data

Results flagged for a closer look

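In all, 4 probe sets had a heart minus leg difference that differed between dko and mdx mice by a test of the difference itself. For Myh7 the difference of log2 differences was -4.06 ± 0.62 (SE, limma adjusted p = 0.0342), for Tnnc1 -2.47 ± 0.36 (adjusted p = 0.0327) and for Atp2a2 -1.85 ± 0.29 (adjusted p = 0.0342). Each was lower in dko, and for each all 3 dko leg arrays were above all 3 mdx leg arrays. The other is a probe set without a gene symbol, at -1.55 ± 0.20 (adjusted p = 0.0135). It had 189, 134 and 19.8 units in dko heart, against 821, 881 and 574 units in dko leg. In mdx mice it had 198, 192 and 94.5 units in heart, against 303, 245 and 108 units in leg. Its log2 difference was -1.76 in dko and -0.21 in mdx, and it was not called in 9 of 19 alternatives. Over the alternatives the adjusted p ran from 0.0082 to 1.0 for Tnnc1, from 0.0231 to 0.439 for Myh7, from 0.0115 to 1.0 for Atp2a2 and from 0.0098 to 1.0 for the probe set without a symbol.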

How the results depend on the processing

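The number of probe sets called between dko heart and dko leg, 2093 with the replicate block, was 951 without the replicate block, 1341 with the 6 dko arrays fitted alone and 859 when a log2 difference of at least 1 was also required. Leaving out 1 of the 6 arrays gave 1578 to 1735 calls, and leaving out all arrays of a number gave 1071 to 1481. Under the other scalings, offsets, filters, array weights and fits with the block the count lay between 1974 and 2317. The number called for the difference between dko and mdx, 4 with the block, was 0 without the replicate block (259 at an unadjusted p under 0.05), 0 with an offset of 16 (815 unadjusted) and 2 with a floor in place of the offset. It was 0 to 3 without 1 of the 6 dko arrays, 0 to 1 without all arrays of a number, and 3 to 5 under the remaining settings; it was not computed for the 6 dko arrays alone, which hold no mdx samples. Of 177 named genes tested, 163 were called, and 149 of those kept the call under every alternative fit. The added requirement of a log2 difference of at least 1 was not counted among these fits. None of the 163 changed sign in any of them. Leaving out the replicate block ended 12 of these calls, and leaving out all arrays numbered 1, 2 or 3 ended 5, 7 and 7. Acta1 and Hba-a1, not called with all arrays, were called without the arrays numbered 3, and Myh7 was called with the 6 dko arrays alone. Some list counts of 3 or more moved by over 1.5 times and are not qualified in the text. Without the block these included 2 factors of both tissues called higher in dko heart (6 with it) and 4 antioxidant genes higher (9). They also included 3 dystrophin complex genes lower (5), 3 natriuretic and stress genes lower (5), and 1 higher and 5 lower growth control genes (3 and 10). Without the arrays numbered 3, 3 factors of both tissues were higher and 1 lower, 5 antioxidant genes were higher, and 0 skin and epithelial markers were higher; that count was also 0 without the block (3 with it). Without the block 2 genes of creatine kinases and gas handling were lower (4). Among smaller counts, the 2 T cell and B cell markers, the 1 smooth muscle and the 1 tendon marker called lower were 0 in both settings, the 2 skin markers lower were 0 without the block and 1 without the arrays numbered 3, and the 2 nerve markers lower were 1 without those arrays; other counts of 1 or 2 also moved. These 2 settings were added for the lists after the data were seen. Dim probe sets limit the fold changes, since values near the floor depend on the offset. Leg array 2 had low Gapdh control signals, and the arrays numbered 3 had a lower median.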

Other observations

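The genes given here are members of the lists counted above whose values were not yet shown, apart from Car14, which is on a list of creatine kinases, oxygen and carbon dioxide handling with 3 of 17 called higher in dko heart and 4 lower. Lipe, hormone-sensitive lipase, read 1770.3, 1147 and 1475 units in dko heart, against 437, 243 and 567 units in dko leg (log2 difference 1.51 ± 0.20, adjusted p = 5.95e-05). Vegfb, a growth factor of the VEGF family, read 8558, 10500.1 and 15043 units in dko heart, against 4545, 4533 and 5005 units in dko leg (log2 difference 1.21 ± 0.22, adjusted p = 0.00113). Both were higher in every heart array. Lyve1, a marker of lymphatic vessels and some macrophages, read 862, 1087 and 816 units in dko heart, against 198, 254 and 334 units in dko leg (log2 difference 1.35 ± 0.19, adjusted p = 9.1e-05). Cidea, a protein of lipid droplets, read 2807, 2562 and 3287 units in dko heart, against 1165, 1083 and 746 units in dko leg (log2 difference 1.40 ± 0.19, adjusted p = 6.69e-05). The tissues did not overlap for either gene.

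Bmp5, a bone morphogenetic protein, read 63.2, 120.1 and 76.1 units in dko heart, against 604, 644 and 675 units in dko leg (log2 difference -1.68 ± 0.29, adjusted p = 0.000618). Car14, a membrane carbonic anhydrase, read 9047, 9075 and 10713 units in dko heart, against 3947, 3667 and 2932 units in dko leg (log2 difference 1.42 ± 0.17, adjusted p = 3.15e-05). Ncam1, a cell adhesion molecule of the junction and of regenerating fibres, read 812, 543 and 664 units in dko heart, against 1846, 1963 and 1423 units in dko leg (log2 difference -1.19 ± 0.16, adjusted p = 8.65e-05). None of the ranges overlapped for these genes.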
